A study of Homo sapiens with 4 samples.

Results

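The comparison was of a single array from NCI-H358 cells with a vector for CHST11 against a single array from NCI-H358 cells with an empty vector. NCI-H358 is a human bronchioloalveolar carcinoma cell line. Genes were taken when their signal, the intensity of the probe set that represents the gene, was at least 27 on at least 1 of the 2 arrays. By this rule 11395 of the 19775 genes with a single-gene probe set on the array were measured. The labels say that the cells were stably transduced and kept under antibiotic selection for 2 weeks, so both groups had been through selection. They do not say whether a line was a clone or a pool. Neither the antibiotic nor the type of vector is given in the sources used here. The series holds 4 arrays, 1 for each vector in NCI-H358 and in A549, a lung adenocarcinoma line. With 1 array per group there was no replicate, and no p-value was computed. Every difference given here is between these arrays, whatever its size.

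CHST11 encodes a sulfotransferase of the Golgi that places sulfate on the fourth carbon of N-acetylgalactosamine in growing chondroitin chains. Such chains hang from core proteins of the cell surface and matrix, where their sulfation pattern sets which growth factors, proteases and adhesion proteins they hold. Lung epithelial tumour cells make and secrete chondroitin sulfate proteoglycans.

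The 4 arrays had median signals of 15.9 to 16.3, and the log2 signals of the NCI-H358 pair correlated with r = 0.996 over 54675 probe sets, which are not independent replicates. The log2 ratio, CHST11 vector over empty vector, had a median of 0.003 and an SD of 0.195 over the measured genes, and 50.7% lay above 0. As a gauge of error, measured probe sets of the same gene differed with an SD of 0.173 in log2 ratio (5150 genes). This gauge says nothing of how far 2 cultures of a group would differ, and the number of arrays limits the precision of every value. Of 18 control probe sets for transcripts added before hybridisation, 17 lay above 0, with a median of 0.09. In bulk RNA a change in the share of cells that use a gene and a change of RNA per cell cannot be told apart.

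The arrays carried the transcripts of an epithelial line. All 10 epithelial markers with a probe set were measured, and EPCAM, an epithelial adhesion molecule, had signals of 4684 and 5599, the empty vector first. Of the markers of other cells that a culture could hold, 3 of 10 leukocyte, 1 of 8 endothelial and 1 of 10 fibroblast genes were measured. Their summed signals were 278 and 262 for leukocytes, 110 and 104 for endothelium, and 299 and 280 for fibroblasts, with the empty vector first. The measured leukocyte genes were CORO1A (83.5 and 83.6), LAPTM5 (73.1 and 56.3) and ITGB2 (29.5 and 28.1). The measured endothelial gene was PECAM1 (39.96 and 36.96) and the fibroblast one COL1A1 (170 and 161). Among the markers under the filter, the leukocyte receptor PTPRC, the endothelial cadherin CDH5 and the fibroblast collagen COL3A1 stayed under 6 on both arrays. CDKN2A, a cell cycle inhibitor often deleted in tumour lines, had signals of 668 and 804 in NCI-H358 and of 18.4 and 23.9 in A549.

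CHST11 itself had the highest ratio of all measured genes. At the probe set 219634_at the empty vector array read 220 and the CHST11 array 1058, which is 4.8-fold apart. The probe set 226368_at had a log2 ratio of -0.05 and 226372_at one of 0.14, both inside the probe set SD. A difference past the probe set SD was thus seen at 1 of 3 probe sets. In A549 the first of these had a log2 ratio of 1.41. With the median of the 3 in place of the brightest, the CHST11 ratio was 0.14.

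Beyond CHST11 the difference between the vectors was small for most genes. At least 2-fold higher were 6 genes, which is 0.0527% of those measured, and 0 genes were at least 2-fold lower (0%). At least 1.5-fold higher were 102 genes (0.895%) and at least 1.5-fold lower were 31 (0.272%). These percentages describe the arrays and are not shares past a test. The 6 were CHST11, ZNF320, GPM6A, DNAH5, LINC01088 and ABCA3. GPM6A, a neuronal membrane glycoprotein, had signals of 16.1 and 38.7, at least 1.26 on the log2 scale since the empty vector array was at the floor, but -0.27 at its other probe set. The higher genes were mostly dim: 74 of the 102 had a signal under 100 on both arrays, against 31.2% of all measured genes. Among the 31 lower genes 27 were that dim. The spread of ratios narrowed with signal, from an SD of 0.248 for genes of 27 to 100 to 0.143 for genes above 1000. In the brightest class 1 of 1452 genes was at least 1.5-fold higher, CHST11, and 0 were lower.

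**Figure D1:**
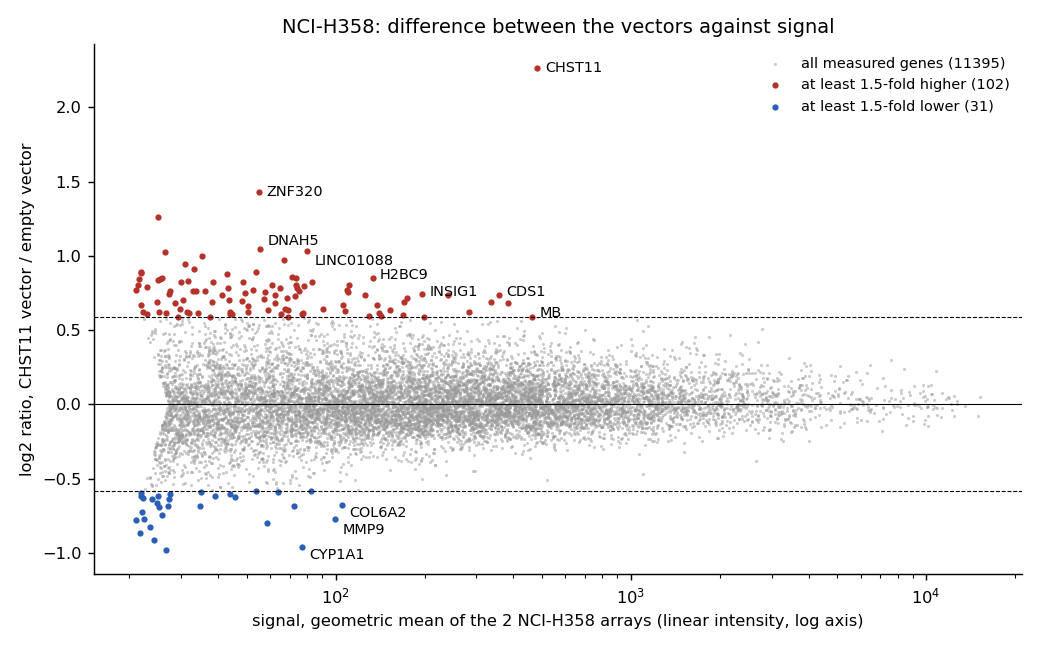
Log2 ratio of CHST11 vector over empty vector (vertical axis) against the geometric mean signal of both NCI-H358 arrays (horizontal log axis), 1 point per measured gene. Red points are the 102 genes at least 1.5-fold higher and blue points the 31 at least 1.5-fold lower. CHST11 stands alone at 2.26, and the spread of the other genes is widest at low signal.

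The edges of these counts were thin. ABCA3 was the last gene inside the 2-fold size (1.03) and C1orf210 the first outside it (0.996). On the lower side CCDC18-AS1, an antisense RNA, came nearest with -0.98, although DBNDD1, with signals of 27.7 and 10.1, is bounded by the floor and had -1.45 without it. At 1.5-fold, APPL1 and ALDH3A1 stood on either side with 0.59 and 0.58, and CLDN3 and TSPAN33 with -0.59 and -0.58. At the signal filter, CCZ1 was just inside with 27.01 and CPLX1 just outside with 26.99.

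Most of the 1.5-fold genes were seen by a single probe set. Of the 102 higher genes 75 had 1 measured probe set, and of the 27 with 2 or more, 19 had them all above 0. Of the 31 lower genes 28 had 1 measured probe set. So had 6249 of all 11395 measured genes. No gene had every one of at least 2 measured probe sets past 1.5-fold. Of all 5146 genes with at least 2 measured probe sets, 50.1% had ratios of 1 sign throughout. Requiring the weakest probe set to pass 0.35 left 28 higher and 4 lower genes, and requiring 0.5 left 8 higher and 0 lower. Probe sets of a gene can overlap in sequence, so their agreement is no replicate.

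HPGD, the dehydrogenase that inactivates prostaglandin E2, was the gene with the most probe sets to show a large ratio. Its 4 measured probe sets had signals of 27.6, 39.4, 36.0 and 19.99 with the empty vector and of 62.7, 73.2, 70.8 and 28.8 with CHST11. All 4 were higher on the CHST11 array, with log2 ratios from 0.52 to 1.18, and 3 of them passed 1.5-fold. In A549 the same probe sets ran from 0.13 to 0.24. SCIN, an actin-severing protein, TRPS1, a GATA-type repressor, and ZBTB20, a zinc finger repressor, were the other genes with 2 probe sets past 1.5-fold, and 0 genes had 2 that were lower. TRPS1 ranged from 0.14 to 0.86 over 4 probe sets, ZBTB20 from 0.33 to 0.78 over 5 and SCIN from 0.31 to 0.82 over 3. SCIN and ZBTB20 were named after their values were seen.

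CP encodes ceruloplasmin, the copper-carrying ferroxidase of plasma. Its probe set 204846_at had signals of 35.1 and 50.8 (log2 0.53) and 227253_at had 21.8 and 55.0 (1.33). The other CP probe sets were under the filter in this line. Of 22 measured genes of iron, copper and zinc handling CP had the highest ratio, and the median of the list was 0.02 with 12 above 0. The transferrin receptor TFRC had signals of 4956 and 5510 (0.15), with its 3 probe sets from -0.09 to 0.15. The metallothioneins MT1G and MT1X were both at -0.18.

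PTBP2, a splicing regulator of neurons, had both probe sets at 0.55, with signals of 276 and 405 at the brighter one. VAV3, a guanine nucleotide exchange factor, had 0.55 and 0.58, and CREB5, a bZIP factor, 0.51 and 0.56. CFAP300, an assembly factor of ciliary dynein, had 0.48 and 0.53. IGFBP3, which binds insulin-like growth factors, was bright on both arrays. Its signals were 1412 and 1881 at one probe set (0.41) and 396 and 569 at the other (0.53). The protein kinases CAMK4 (0.48 and 0.96) and DCLK1 (0.48 and 0.84) and the dynamin DNM3 (0.46 to 0.59 over 3 probe sets) also lay above 0 throughout. So did GAREM1, an adaptor of the EGF receptor (0.46 to 0.74), TMTC3, an O-mannosyltransferase (0.42 to 0.57), PPP1R3B, a glycogen-targeting phosphatase subunit (0.41 and 0.53), NBEA, a neuronal trafficking protein (0.52 and 0.55), and the noncoding RNA PWAR6 (0.53 and 0.77).

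Fewer genes were lower at every probe set, and by less. LCK, a Src-family kinase best known from T cells, had signals of 86.8 and 61.6 (-0.50) and of 34.0 and 21.7 (-0.65). MERTK, a receptor for the clearance of dying cells, had -0.44 and -0.68. ECE1, which cleaves endothelin to its active form, had signals of 121 and 88.3 (-0.46), with -0.44 at the other probe set. CX3CL1, a membrane-bound chemokine, had -0.42 and -0.46. COL6A2, a chain of collagen VI, had -0.68 and -0.27, and the neighbouring chain gene COL6A1 had a representative ratio of -0.33 with probe sets from -0.33 to 0.40. METTL3, which writes N6-methyladenosine on mRNA, had signals of 873 and 718 (-0.28, and -0.39 at the other probe set).

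**Figure D2:**
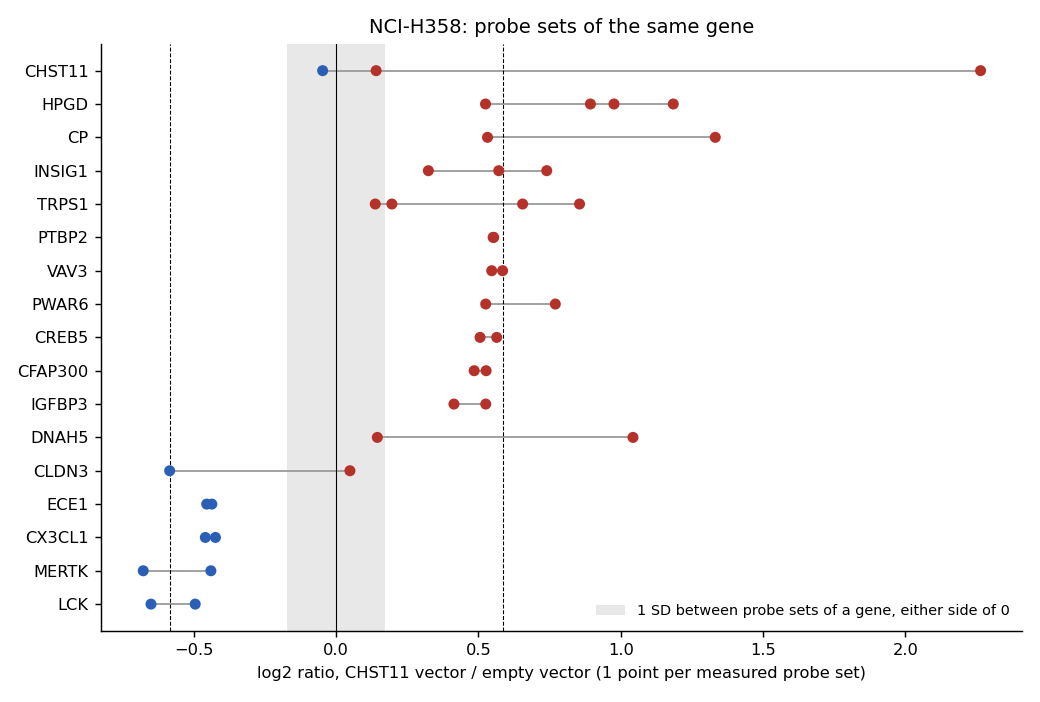
Log2 ratio of each measured probe set (horizontal axis) for 17 genes in NCI-H358, 1 row per gene and 1 point per probe set, with red above 0 and blue below. The grey band spans 1 SD of the difference between probe sets of a gene (0.173) and the dashed lines mark 1.5-fold. HPGD lies past the band at all 4 probe sets, while CHST11, TRPS1, DNAH5 and CLDN3 each have at least 1 probe set inside it.

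Cells make cholesterol from acetyl-CoA through the mevalonate pathway, and the transcription factors of the SREBP family raise its genes when sterols in the endoplasmic reticulum run low. INSIG1 holds SREBP back when sterols are plentiful and is itself a target of it. Of 21 measured genes of sterol synthesis and control, 16 lay above 0 and 5 below, with a median of 0.147 against 0.003 for all genes. Of these 21, 2 were at least 1.5-fold higher and 0 lower, where all measured genes had 0.895% and 0.272%. The median was between 0.109 and 0.183 under the 12 other settings tried.

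INSIG1 had signals of 151 with the empty vector and 253 with CHST11, a log2 ratio of 0.74. Its other probe sets had 0.32 and 0.57, all above 0. TM7SF2, a sterol reductase, had 25.2 and 38.8 (0.62) from a single dim probe set, which passed the filter only on the CHST11 array. HMGCS1, the synthase that feeds the mevalonate pathway, had 178 and 242 (0.44), but 0.09 at its second probe set. Higher as well were SC5D, a sterol desaturase (428 and 540, 0.33), STARD4, a sterol carrier (174 and 218, 0.32), and MSMO1, a methylsterol oxidase (959 and 1198, 0.32). At the other end PMVK, a mevalonate pathway kinase, had 320 and 291 (-0.14), and SCAP, the escort of SREBP, 213 and 196 (-0.12). The 16 synthesis enzymes alone had a median of 0.137, with 13 above 0. In A549 the 21 genes had a median of 0.02.

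**Figure D3:**
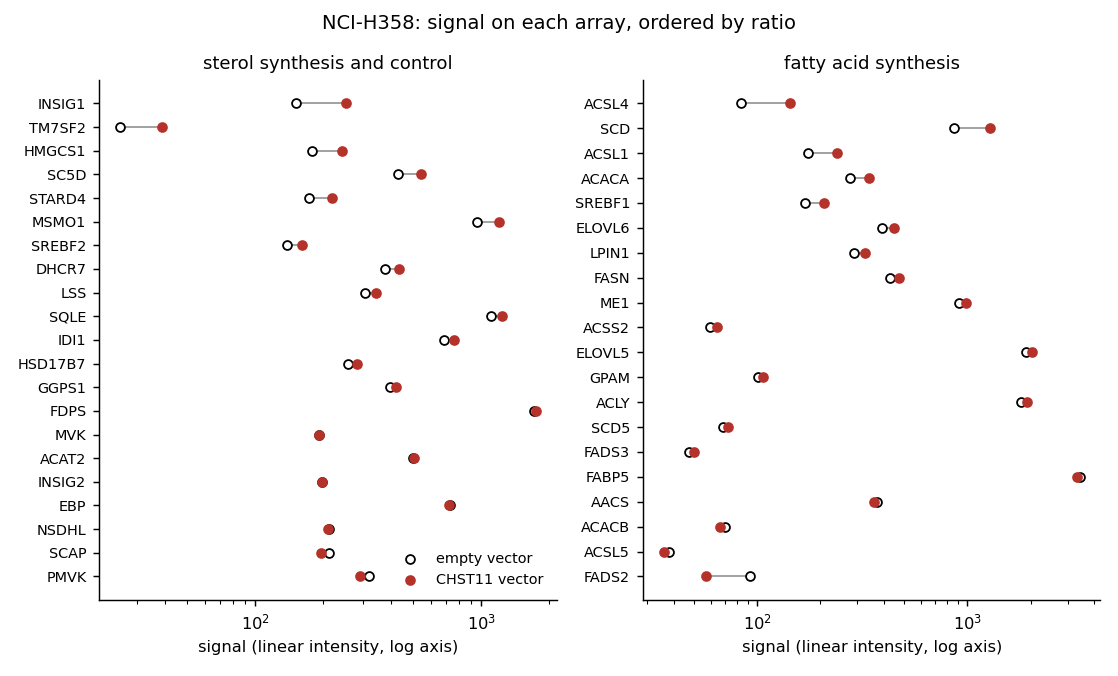
Signal on the empty vector array (open circles) and the CHST11 array (red circles) for the 21 measured sterol genes (left) and 20 measured fatty acid genes (right), on log axes and ordered by log2 ratio. The differences are small beside the range of signals: INSIG1 went from 151 to 253, and most other pairs lie closer together.

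The promoters of INSIG1, TM7SF2, HMGCS1 and SC5D, measured sterol genes with high ratios, are shown. Not every measured sterol gene entered this choice, so others may have ratios as high. All of the promoters shown hold a match to the motif CCAAT. Each window runs from 250 bases before to 50 bases after the RefSeq start of the gene (GRCh38.p14), is written on the strand of the gene, and has CCAAT or its reverse complement ATTGG in capitals. CCAAT is the box bound by NF-Y, a factor that acts beside SREBP at sterol genes.
INSIG1 promoter, chr7:155297628-155297927, plus strand: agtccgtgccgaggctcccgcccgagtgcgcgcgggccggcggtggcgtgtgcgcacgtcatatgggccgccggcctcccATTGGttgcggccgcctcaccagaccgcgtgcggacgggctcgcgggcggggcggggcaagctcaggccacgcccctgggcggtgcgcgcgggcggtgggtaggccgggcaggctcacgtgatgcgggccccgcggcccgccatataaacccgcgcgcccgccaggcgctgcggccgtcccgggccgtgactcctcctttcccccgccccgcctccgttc
TM7SF2 promoter, chr11:65111622-65111921, plus strand: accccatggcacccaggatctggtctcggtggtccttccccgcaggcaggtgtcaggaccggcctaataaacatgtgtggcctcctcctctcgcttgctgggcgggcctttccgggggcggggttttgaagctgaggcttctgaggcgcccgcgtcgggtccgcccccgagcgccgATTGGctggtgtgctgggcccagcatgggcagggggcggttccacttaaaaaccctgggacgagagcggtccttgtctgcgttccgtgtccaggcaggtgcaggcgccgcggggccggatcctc
HMGCS1 promoter, chr5:43313363-43313662, minus strand: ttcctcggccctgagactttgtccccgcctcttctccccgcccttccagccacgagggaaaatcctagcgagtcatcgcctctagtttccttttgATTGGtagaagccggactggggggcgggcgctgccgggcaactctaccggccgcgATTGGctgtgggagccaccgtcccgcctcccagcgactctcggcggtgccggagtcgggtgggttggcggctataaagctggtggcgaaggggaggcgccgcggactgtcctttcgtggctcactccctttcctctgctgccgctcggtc
SC5D promoter, chr11:121292521-121292820, plus strand: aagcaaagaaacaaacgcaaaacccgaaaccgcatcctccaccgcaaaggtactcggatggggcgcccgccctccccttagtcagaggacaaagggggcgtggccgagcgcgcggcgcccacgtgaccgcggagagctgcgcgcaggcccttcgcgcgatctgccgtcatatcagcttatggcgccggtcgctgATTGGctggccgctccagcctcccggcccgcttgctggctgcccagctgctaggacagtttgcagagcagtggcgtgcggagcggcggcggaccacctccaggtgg

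A window for 19 of the 21 measured sterol genes was in the RefSeq table. CCAAT, searched on both strands, was in 14 of these 19 windows (73.7%), against 35.7% of all 27305 promoter windows and 37.1% of those of measured genes. INSIG1, TM7SF2 and SC5D held 1 match each and HMGCS1 held 2. For the fatty acid genes it was in 7 of 18 windows (38.9%). A match is a string of letters in the reference genome, and binding was not measured.

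Fatty acid genes lay above 0 more often than below, with less height. Of 20 measured genes 15 were above 0, the median was 0.103, and 1 was at least 1.5-fold higher and 1 lower, against 0.895% and 0.272% of all measured genes. ACSL4, which activates arachidonic acid for membrane lipids, had signals of 83.7 and 143 (0.77). SCD, the desaturase that makes oleic acid, had 860 and 1277 (0.57), and its 4 probe sets ran from 0.12 to 0.57. FADS2, the desaturase at the entry to long polyunsaturated fatty acids, went the other way, with 91.9 and 57.1 (-0.69). The synthase FASN had 426 and 470 (0.14), and the transcription factor SREBF1 168 and 208 (0.31). Sterol efflux and its LXR targets had a median of -0.02, with 5 of 10 genes above 0, and ABCA1, the cholesterol exporter, had 268 and 309 (0.20).

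Membrane lipid transporters held some of the largest ratios of the pair. ABCA3, which fills the surfactant bodies of alveolar type II cells, had signals of 18.6 and 37.8 (1.03). ATP8A1, a flippase that moves phosphatidylserine to the inner leaflet, had 47.6 and 93.3 (0.97). ABCA7, a lipid exporter, was lower with 145 and 97.4 (-0.58), and ABCG2, a drug exporter, had 122 and 102 (-0.27). The list of 20 transporters had a median of 0.149 with 14 above 0 and 2 at least 1.5-fold higher, 10% against 0.895% of all genes. ABCA3 passed the filter only on the CHST11 array, where it was brighter, and each of the 2 rests on 1 measured probe set. Nothing is read from that share. With the median of all probe sets of a gene the list stood at 0.04. Other lipid enzymes past 1.5-fold, named after their values were seen, were SGMS2, a sphingomyelin synthase (185 and 309, 0.74), CDS1, which makes CDP-diacylglycerol (276 and 460, 0.74), and the peroxisomal EHHADH (25.3 and 43.0, 0.76). The lowest of the 3 probe sets of CDS1 had 0.12, and that of SGMS2 0.30.

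The aryl hydrocarbon receptor is a ligand-activated factor that induces cytochromes of the CYP1 family. CYP1A1, its classic target, went from 107 on the empty vector array to 55.0 on the CHST11 array, a log2 ratio of -0.96. CYP1A2 had 32.8 and 46.1 (0.49) and ALDH3A1, another target, 63.9 and 95.9 (0.58), so 3 targets of the receptor did not share a direction. CYP1B1 had 1940 and 2232 (0.20) and the receptor itself, AHR, 132 and 147 (0.16). TIPARP and NQO1, both at -0.17, were the other members below 0. The 11 measured genes had a median of 0.161 with 8 above 0. The CYP1A1 promoter window is printed with GCGTG, the core of the element bound by the receptor, or its reverse complement in capitals.
CYP1A1 promoter, chr15:74725479-74725778, minus strand: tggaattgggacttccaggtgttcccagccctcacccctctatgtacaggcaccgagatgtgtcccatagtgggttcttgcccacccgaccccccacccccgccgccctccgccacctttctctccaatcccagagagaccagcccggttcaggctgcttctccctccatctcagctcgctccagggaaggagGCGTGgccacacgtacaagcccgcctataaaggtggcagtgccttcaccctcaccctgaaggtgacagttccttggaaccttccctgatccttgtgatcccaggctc

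This window held 1 match. GCGTG, on both strands, was in 7 of 9 windows of the measured receptor genes (77.8%), against 36.3% of all windows and 50.9% of those of measured genes. CYP1A1 was under the filter on both A549 arrays.

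Alveolar type II cells make surfactant, and the measured genes of that cell type lay slightly above 0. Apart from ABCA3, HOPX, a homeodomain protein of alveolar cells, had signals of 33.6 and 40.9 (0.28), and LAMP3, a protein of lamellar bodies, 123 and 141 (0.20). NKX2-1, the lung lineage factor, had 247 and 264 (0.09), and the surfactant protein SFTPC, dim on both arrays, 51.1 and 46.7 (-0.13). The list had a median of 0.107 with 8 of 10 above 0. Airway secretory genes had a median of 0.115 with 8 of 11 above 0. RNASE1, a secreted ribonuclease, had 24.1 and 45.4 (0.91), the mucin MUC20 had 34.3 and 43.7 (0.35), and AGR2, a mucin folding factor, had 552 and 674 (0.29). SLPI, the leukocyte protease inhibitor, was lower with 613 and 496 (-0.31).

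Only 5 of 20 ciliated cell genes with a probe set were measured, all dim. DNAH5, a heavy chain of the outer dynein arm, had signals of 38.5 and 79.4 (1.04) at one probe set and a ratio of 0.14 at the other. RFX3, a factor that drives cilium genes, had 42.3 and 61.2 (0.53). TPPP3 (-0.17) and DRC1 (-0.30) were lower. The median of these 5 was 0.11, and -0.11 when the median of all probe sets of a gene was used.

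Genes of inflammation and antigen display lay below 0. Of 15 measured genes of antigen presentation 13 were below 0, the median was -0.155, and 0 were past 1.5-fold in either direction. At the shares of all measured genes, 0.895% higher and 0.272% lower, a list of this size would show few or none. HLA-B, a class I heavy chain, had signals of 3485 and 2970 (-0.23), with its 3 probe sets from -0.28 to -0.23. The peptide transporter TAP1 had 239 and 194 (-0.30), the immunoproteasome subunit PSMB9 676 and 547 (-0.31), and the protease CTSS 345 and 254 (-0.45), with its 3 probe sets from -0.45 to -0.01. The members above 0 were HLA-DRA and HLA-DMA of class II, both at 0.24 and dim, and a second HLA-DRA probe set had signals of 21.2 and 37.6 (0.83). HLA genes are near-identical copies in places, and the array may read one for another.

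Cytokines and NF-kB genes had a median of -0.132 with 19 of 27 below 0. NFKB2, the subunit of the alternative NF-kB pathway, had signals of 35.9 and 26.8 (-0.42), its partner RELB 51.1 and 39.4 (-0.37), and the inhibitor NFKBIE 77.3 and 59.0 (-0.39). The interleukin IL1A had 28.6 and 21.5 (-0.41) and IL1B 139 and 110 (-0.35), with 0.08 at its second probe set. Against the rest, CXCL8, the neutrophil chemokine, had 1215 and 1568 (0.37), with 0.06 at its second probe set. IL6 also lay above 0, with 197 and 253 (0.36). The 14 factors and intracellular targets alone had 11 below 0, against 8 of 13 cytokines and chemokines. By size the order was the other way, with medians of -0.131 and -0.186. Below 0 by more than the probe set SD were 4 of the 14 and 7 of the 13. The share of all measured genes past that SD was not taken, so nothing is read from these counts. In A549 the measured genes of this list had a median of 0.01.

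Immediate early genes had a median of -0.151 with 10 of 15 below 0, and NR4A1, an orphan nuclear receptor, and KLF2, a Krüppel-like factor, were both at -0.37. KLF10 had the highest value of that list, with signals of 1081 and 1255 (0.22). Interferon-response genes had a median of -0.048 with 17 of 28 below 0. The antiviral GTPases MX1 (49.3 and 33.5, -0.56) and MX2 (57.9 and 42.8, -0.44) were the lowest, and GBP1, a guanylate-binding protein, the highest (272 and 396, 0.54, with probe sets from -0.01 to 0.54). Lysosomal and autophagy genes were low by little but often: 20 of 24 lay below 0, with a median of -0.063. CTSL, a lysosomal protease, had 1049 and 877 (-0.26) and GAA, the acid glucosidase, 156 and 133 (-0.22). The medians of these 5 lists stayed below 0 under all 12 other settings, but not at the same size. That of the interferon genes was -0.0101 after a loess of the ratio on gene span, and that of the immediate early genes -0.025 with no filter on signal. The 5 lists had median spans from 4.50 kb for the immediate early genes to 22.8 kb for the lysosomal ones.

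Junction genes hold epithelial cells together. The 14 genes of adherens junctions and desmosomes had a median of 0.124 with 9 above 0, and the 10 tight junction genes a median of 0.01 with 5 above 0, and the difference between the groups was not tested. DSP, desmoplakin, which ties desmosomes to keratin, had signals of 265 and 426 (0.69), and PKP2, plakophilin, 137 and 197 (0.53). E-cadherin, CDH1, had 3506 and 4243 (0.28), with 0.11 at its second probe set. The claudins CLDN3 (101 and 67.1, -0.59) and CLDN1 (50.2 and 38.3, -0.39) were the lowest, and the second CLDN3 probe set had 0.05. Keratins moved little, from -0.16 for KRT8 to 0.21 for KRT80.

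Mesenchymal genes had a median of 0.207 with 8 of 12 above 0, although vimentin, VIM, the intermediate filament of mesenchymal cells, was the lowest. VIM had signals of 3019 and 2322 (-0.38) from 1 measured probe set. SPARC, a matrix glycoprotein, had 25.9 and 38.5 (0.57), LOX, the collagen crosslinking enzyme, 57.2 and 82.8 (0.53), and fibronectin, FN1, 2140 and 2479 (0.21) with 4 probe sets from 0.21 to 0.30. CDH2, N-cadherin, had 381 and 448 (0.23). With no filter on signal the list median was 0.00.

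Matrix proteases moved both ways. MMP9, a gelatinase, had signals of 130 and 76.2 (-0.77) and MMP13, a collagenase, 32.8 and 56.4 (0.78), each from 1 probe set. MMP24, a membrane-type metalloproteinase, had 27.1 and 17.9 (-0.60). The urokinase receptor PLAUR had 1194 and 949 (-0.33), its ligand PLAU 1623 and 1447 (-0.16), and the inhibitor TIMP1 1487 and 1261 (-0.24). The list had a median of -0.060, with 17 of 26 below 0, and a median of 0.0496 without the _s_at and _x_at probe sets, which can read more than 1 transcript. Among integrins and laminins the median was 0.045 with 8 of 15 above 0. NPNT, nephronectin, a matrix ligand of integrins, was the highest with 136 and 223 (0.71), and CEACAM1 the lowest with 45.4 and 35.1 (-0.37).

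CHST11 works within a set of enzymes that build and sulfate the chondroitin chain. Synthesis of chondroitin and dermatan sulfate counted 27 measured genes without CHST11, which had a median of 0.022 with 15 above 0, and quantile normalization turned it to -0.003. Of these 27 genes 0 were past 1.5-fold in either direction, where 0.895% of all measured genes were that much higher and 0.272% lower, so a list of this size would show few or none at those shares. UGDH, which makes the glucuronic acid donor, had signals of 573 and 767 (0.42), and CHSY3, a chain polymerase, 33.3 and 44.1 (0.40). CHPF, the polymerising factor, had 85.7 and 67.6 (-0.34) and its relative CHPF2 218 and 192 (-0.19). The other sulfotransferases and epimerases had a median of -0.020, from -0.16 to 0.35. CHST12, which sulfates the same position as CHST11, had 75.04 and 67.1 (-0.16).

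Proteoglycan cores and hyaluronan genes had a median of -0.047 with 11 of 26 above 0. VCAN, versican, the large chondroitin sulfate proteoglycan, had signals of 614 and 593 (-0.05), but its 5 probe sets reached 0.38. CD44, the hyaluronan receptor, lay below 0 at all 8 measured probe sets, from -0.31 to -0.08. CEMIP, a hyaluronan-degrading protein, had 91.9 and 136 (0.57), and CD74, whose chain carries chondroitin sulfate, 41.0 and 58.7 (0.52). GPC1, a glypican, was the lowest with 68.7 and 50.9 (-0.43). Heparan sulfate synthesis had a median of -0.017 with 5 of 13 above 0, with HS2ST1 at 0.37 and HS3ST3A1 at -0.33.

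The list with the highest median was that of cell cycle inhibitors. Of 9 measured genes 8 lay above 0, the median was 0.244, and 0 passed 1.5-fold. With 0.895% of all measured genes that much higher and 0.272% lower, so short a list would show few or none. CDKN1C, the inhibitor p57, had signals of 30.0 and 43.2 (0.53), the pocket proteins RBL1 72.4 and 99.8 (0.46) and RBL2 226 and 308 (0.45), and CDKN1B, the inhibitor p27, 266 and 326 (0.29). CDKN1A, the inhibitor p21, was the exception with 278 and 264 (-0.07). Proliferation genes had a median of 0.01 with 25 of 44 above 0. They ran from CCNE2, cyclin E2 (367 and 517, 0.49, with 0.12 at its other probe set), to AURKB, aurora kinase B (523 and 431, -0.28).

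Growth factor pathways held genes with ratios of either sign. TGF-beta and BMP genes had a median of 0.061 with 15 of 28 above 0. TGFB1 had signals of 70.6 and 48.9 (-0.53) and TGFB2 407 and 492 (0.27), so the ligands differed in sign. INHBB, an activin chain, had 463 and 618 (0.42), and GDF15, a stress-induced family member, 75.1 and 52.4 (-0.52). ErbB receptors and ligands had a median of 0.140 with 8 of 10 above 0, while MAPK feedback genes and targets had -0.016 with 8 of 17. Among receptors and ligands EGF was the highest (37.2 and 46.6, 0.32). NRG1 had 354 and 427 (0.27), with its other measured probe sets at -0.03 and 0.04. FOSL1, an AP-1 subunit induced by MAPK signalling, had 1296 and 937 (-0.47) and IER3 had 3585 and 3015 (-0.25). Hippo genes had a median of 0.106 with 14 of 19 above 0, led by the kinase LATS1 (151 and 209, 0.47), with TEAD4 lowest (-0.37). Wnt genes had a median of 0.042 with 15 of 25 above 0, with the R-spondin receptor LGR4 at 0.50.

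Hypoxia genes had a median of 0.149 with 11 of 18 above 0. BNIP3L, a receptor for the removal of mitochondria, had signals of 644 and 871 (0.43) at one probe set and a ratio of 0.07 at the other. HIF1A had 5107 and 5817 (0.19), and VEGFA 1881 and 2149 (0.19) with probe sets from -0.69 to 0.20. Glycolysis had a median of 0.00 with 11 of 21 above 0. Unfolded protein genes had a median of 0.079 with 12 of 18 above 0, led by XBP1 (204 and 268, 0.40) and the chaperone CALR (929 and 1166, 0.33, with 3 probe sets from 0.28 to 0.55). Amino acid stress genes lay at -0.037 with 7 of 17 above 0, with DDIT3 at -0.33. Aldo-keto and aldehyde enzymes had a median of 0.098 with 8 of 14 above 0, and of -0.0104 without the _s_at and _x_at probe sets. AKR1B10, which reduces retinal, had signals of 15.9 and 29.9, at least 0.89 because the empty vector array was at the floor, while AKR1C2 had 0.48 and AKR1C1 -0.42; those 2 genes are near-identical copies that probe sets can confuse.

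The remaining lists had medians within 0.14 of 0. Direction is not settled for several lists of the pair, since under at least 1 other setting the median changed sign or reached 0. Among them were sterol efflux, chondroitin sulfate synthesis, proteoglycan cores, heparan sulfate synthesis, airway, ciliated, glycolysis, junctions, keratins and mesenchymal genes. Others were matrix proteases, integrins and laminins, ErbB and MAPK, proliferation, amino acid stress, aldo-keto and aldehyde enzymes, NRF2, iron and plasma proteins. The same held for Golgi, ribosome, respiratory chain, SWI/SNF and housekeeping genes and for the cell type markers. The values were 0.021 for NRF2 targets, -0.038 for heat shock, -0.057 for the BCL2 family, 0.033 for SWI/SNF subunits, 0.017 for Golgi and secretion, -0.010 for plasma and complement proteins and 0.125 for vessel growth factors. Ribosomal proteins had 0.020, nuclear respiratory chain genes -0.032 and housekeeping controls -0.045. The 7 measured genes of the mitochondrial genome had a median of -0.140. SEC24D, a coat protein of secretory vesicles, was past 1.5-fold in the Golgi list with signals of 84.8 and 143 (0.75), and ANGPT1, an angiopoietin, in the vessel list with 14.9 and 29.8 (at least 0.88). Over all 860 measured genes of the 51 lists, 13 were at least 1.5-fold higher and 5 lower, beside 0.895% and 0.272% of all measured genes. Many of the list members were chosen with earlier results known, so nothing is read from these counts.

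**Figure D4:**
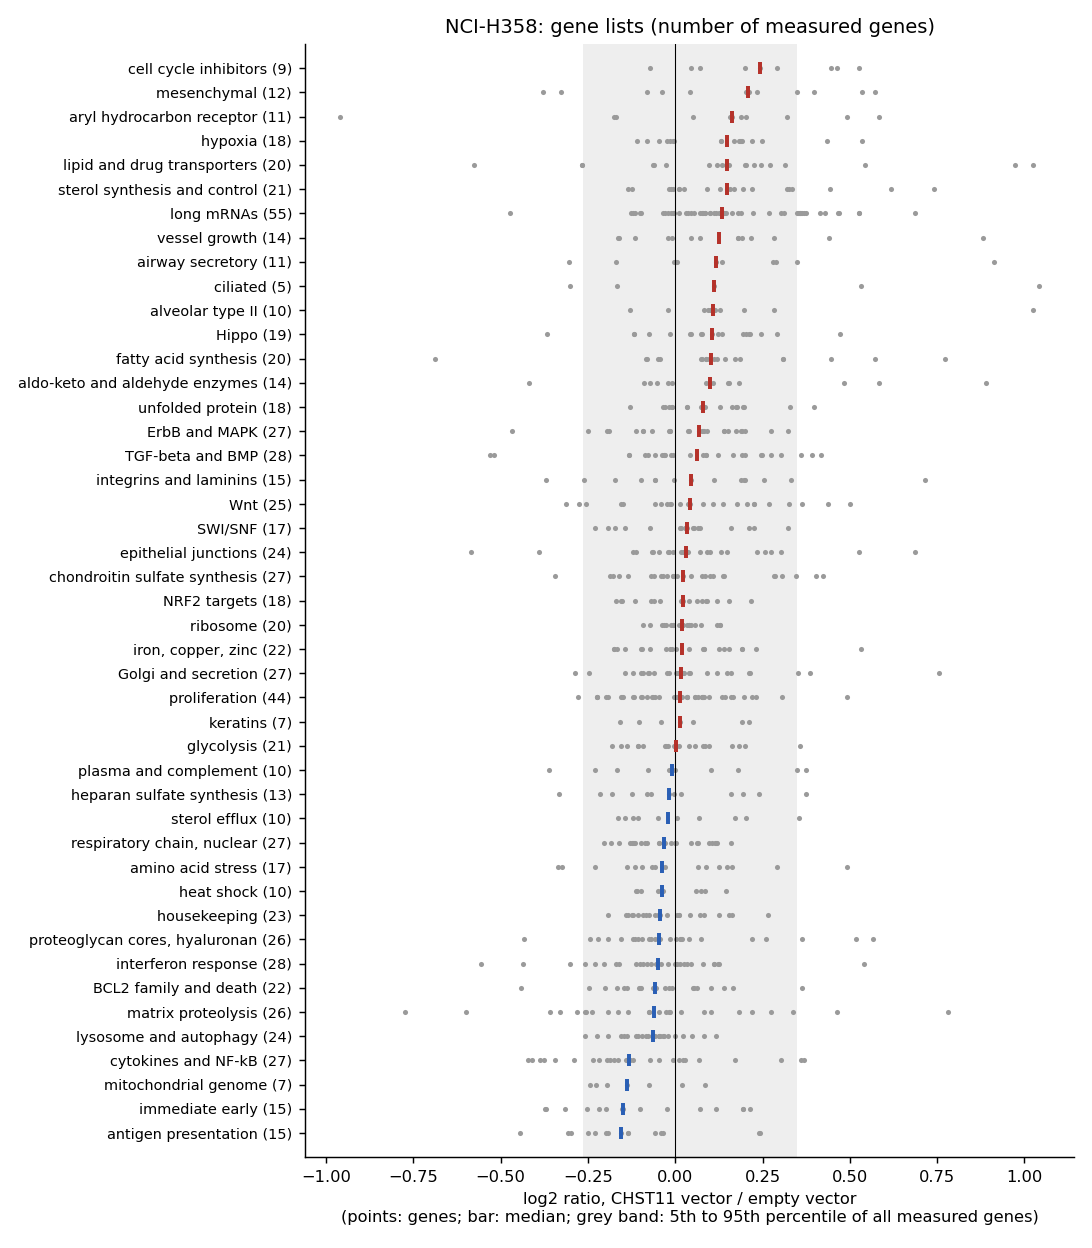
Log2 ratio of every measured gene (grey points) in 45 gene lists of at least 5 measured genes, with the list median as a bar (red above 0, blue below), ordered by median. The grey band spans the 5th to 95th percentile of all measured genes (-0.264 to 0.349). Every median lies inside the band, from -0.155 for antigen presentation to 0.244 for cell cycle inhibitors.

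Groups of genes by kind also differed in their ratios, and these groups were chosen after earlier results of these data were seen. Of 362 measured zinc finger genes named ZNF and a number, 215 lay above 0, the median was 0.047, and 11 (3.04%) were at least 1.5-fold higher and 0 lower, against 0.895% and 0.272% of all measured genes. Among all genes whose brighter signal was 27 to 100, 2.08% were that much higher and 0.76% lower. The zinc finger genes were not matched to others by signal. ZNF320, a zinc finger protein, had signals of 33.4 and 90.1 (1.43) at one probe set and a ratio of 0.41 at the other. ZNF682 had 22.3 and 42.9 (0.94), and ZNF253 had 31.6 and 57.9 (0.88) with -0.05 at its second probe set. Zinc finger genes are repeated copies, and probe sets can read more than 1 of them. Of 14 replication histone genes 11 were above 0, with a median of 0.128, and H2BC9, a histone H2B gene, had 99.2 and 179 (0.85).

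Genes with a long span in the genome lay above those with a short span. Sorted by span (RefSeq, 11389 genes), the 2278 shortest had a median span of 4.71 kb and a median ratio of -0.045, and the 2278 longest 150 kb and 0.065. In A549 the order was the other way, from 0.034 to -0.024. Across genes, which are not independent, the Spearman correlation with span was 0.22 in NCI-H358 and -0.17 in A549. A list of 55 measured genes with long mRNAs had a median of 0.134 with 43 above 0, against -0.406 in A549. Among the probes toward the ends of 2 control transcripts, the 5′ probe set of ACTB had -0.14 and the 3′ one 0.03, and those of GAPDH had -0.0015 and 0.03. After a loess of the ratio on span, 89 of the 102 higher and 25 of the 31 lower genes were still past 1.5-fold, and the sterol median was 0.152. The part of RNA quality in these differences was not tested.

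Many genes past 1.5-fold in NCI-H358 could not be followed in A549. Of the 102 higher genes 50 (49.0%) were under the filter there. This compares with 7.22% of all measured genes and 17.1% of those with a signal under 100. All genes measured in both lines had a median of 0.012 in A549. Of the 52 that were measured, 29 lay above 0 in A549, 3 were at least 1.5-fold higher and 3 at least 1.5-fold lower. Of all A549 genes 0.489% were that much higher and 0.716% that much lower. The 3 higher were CHST11, the noncoding RNA LINC00261 (0.69 in NCI-H358 and 0.63 in A549) and ZNF835 (0.62 and 0.59). The 3 lower were ADGRL3, NPNT and ZBTB20. Of the 31 lower genes 9 (29.0%) were under the filter in A549. Of the 22 measured there, 8 lay below 0 and 1, CLDN3, was at least 1.5-fold lower (-0.63), while 0 were at least 1.5-fold higher. Both lines have their own empty vector array, so the pairs share no sample.

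Several genes with large ratios in NCI-H358 had other values in A549. INSIG1 had 0.74 in NCI-H358 and 0.21 in A549, MMP9 -0.77 and -0.17, DSP 0.69 and -0.34, and ABCA3 1.03 and 0.09. HPGD had 0.89 and 0.21. CP had 0.53 and 1.003 at 204846_at and 1.33 and 1.005 at 227253_at, so it lay above 0 in both lines. CCDC18-AS1 had -0.98 in NCI-H358 and 0.50 in A549. With 1 array a group, whether the lines differ in these genes was not tested.

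**Figure D5:**
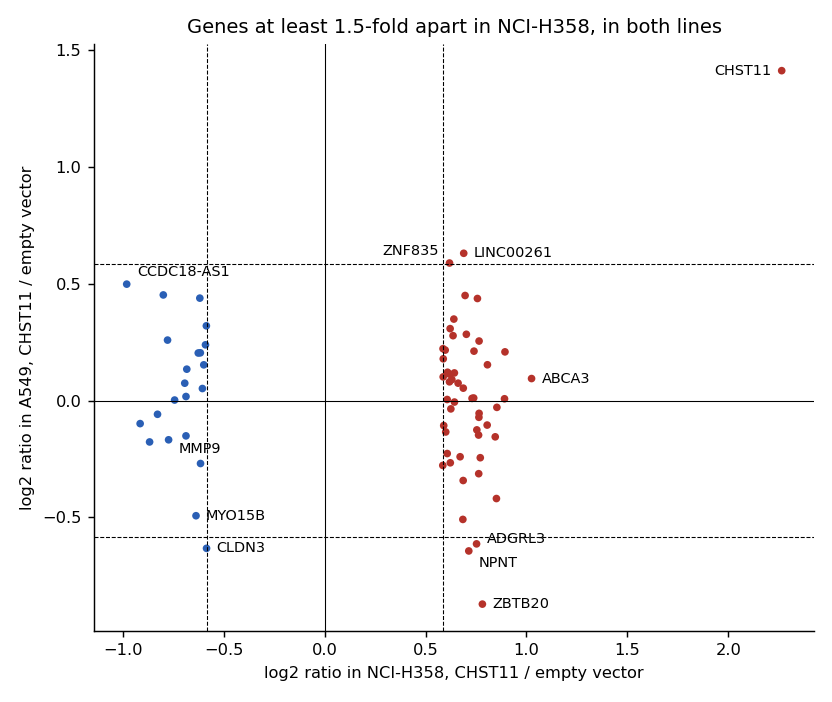
Log2 ratio of CHST11 vector over empty vector in NCI-H358 (horizontal) and in A549 (vertical) for genes at least 1.5-fold apart in NCI-H358 and measured in both lines, 1 point per gene, with red for the 52 higher and blue for the 22 lower. The dashed lines mark 1.5-fold. Apart from CHST11, most points lie between the dashed lines for A549.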

How the data were processed

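Total RNA of the 4 cultures was extracted with a column kit and labelled as biotin cRNA, per the labels. The authors deposited linear intensities of an Affymetrix 1-colour array, made with MAS5 per the submitters' processing notes. For its version, scaling target and detection calls the sources used here give nothing. Before log2, any value under 16.1, the 50th percentile over the 4 arrays, was raised to it, and each gene took the value of the probe set, among those named for it alone, of highest mean log2 signal over the 4 arrays. In the platform annotation 41091 probe sets had 1 gene symbol, 1801 had several and 11721 had no symbol. The array's 62 control probe sets entered no count. A ratio with its dimmer side at the floor is given as at least that size. Counts are by size, 2-fold or 1.5-fold, with no test. The procedure was tested on simulated data. Groups came from the sample labels, with 1 array each.

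Members and lists were chosen with earlier results of these data known. The naming rule took CHST11, the 20 highest and 20 lowest genes by representative ratio and by weakest probe set, the 2 highest and 2 lowest of each list, every list member past 1.5-fold, and a short fixed set with CP, TFRC, CLDN3, CDH1, VIM, CD44, VCAN, MMP9, CYP1A1, ABCA3 and INSIG1. Other list members and other genes in the text, such as SC5D, STARD4, HLA-B, TAP1, RELB, FN1, PLAUR, AGR2, RBL2, TGFB2, SGMS2, CDS1 and EHHADH, were named after their values were seen. Alternatives were 11 planned settings and 1 added after the data were seen, the loess on gene span. The software was pandas 2.3.3, NumPy 2.4.6, statsmodels 0.14.6, SciPy 1.17.1 and matplotlib 3.10.9 on Python 3.11.15.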

Additional observations from a re-analysis of the deposited data

Results flagged for a closer look

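For 3 genes past 1.5-fold in NCI-H358 the ratio in A549 was past 1.5-fold the other way, on single arrays, and the difference between the lines was not tested. ADGRL3, an adhesion receptor, had log2 0.75 in NCI-H358 (signals 38.1 and 64.3) and -0.61 in A549 (27.7 and 18.1). NPNT, a matrix ligand of integrins, had 0.71 (136 and 223) and -0.64 (29.5 and 18.9). ZBTB20, a zinc finger repressor, had 0.78 (56.6 and 97.4) and -0.87 (129 and 70.7). In A549 ADGRL3 and NPNT passed the filter only on the empty vector array. Of all measured A549 genes 0.716% were at least 1.5-fold lower.

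Among the 2824 measured probe sets without a single gene name, which no gene comparison used, 35 (1.24%) were at least 1.5-fold higher and 12 (0.425%) lower, against 1.055% and 0.265% of the 19619 measured probe sets with a single gene. At least 2-fold higher were 2. The probe set 224549_x_at had signals of 215 with the empty vector and 443 with CHST11 (log2 1.04), and 0.38 in A549. The probe set 244362_at had 20.1 and 41.8 (1.05) and was under the filter in A549. The controls here are the empty vector array alone, so no spread stands behind either value.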

How the results depend on the processing

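No paired analysis was possible because each group held 1 array. The count of genes at least 2-fold higher was 6 and became 3 with the filter at the 75th percentile, 2 with the median of measured probe sets and 3 without the probe sets marked _s_at and _x_at. The count at least 2-fold lower was 0 and became 1 with the floor at the 25th percentile and 1 with no floor, which was DBNDD1. With the filter at the 75th percentile 39 genes were at least 1.5-fold higher and 5 lower, in place of 102 and 31. With signal past the filter on both arrays 70 were higher and 13 lower. The rest of the 102 and of the 31 had passed the filter only on the array where they were brighter. The CHST11 ratio of 2.26 was 0.14 with the median of its probe sets and 2.18 to 2.30 otherwise. GPM6A, at least 1.26 at the main setting, had -0.27 with the brightest probe set in NCI-H358 and without the _s_at and _x_at probe sets, and ZNF253 had -0.0542 under both. Here the setting picks another probe set of the gene. Of 596 values for list medians 593 moved less than their spread. Signal over background limits what can be seen, since 74 of the 102 higher genes were under 100. The scale of dim values depends on the MAS5 background step, which was not repeated here, and 1 culture per group leaves the spread between cultures unmeasured.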

Other observations

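Some genes past 1.5-fold were neighbours in the genome. Among measured genes next to each other in the RefSeq order, with any unmeasured gene between them passed over, HPGD (0.89) and GPM6A (at least 1.26) were both higher. So were the phospholipid flippase ATP8A1 (0.97) and its neighbour SHISA3 (0.61), CPS1, the entry enzyme of the urea cycle (0.61), and IKZF2, an Ikaros factor (0.61), and the receptor gene IL17RD (0.64) and the adaptor gene APPL1 (0.59). COL6A2 (-0.68) and FTCD (-0.59) were both lower, and SMPD2 (-0.63) and MICAL1 (0.64) went opposite ways. These pairs were listed after the values were seen.

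Genes of long noncoding RNAs (lncRNA) made up 9 of the 102 higher and 7 of the 31 lower genes. The 477 measured lncRNA genes had a median of -0.02. Of these 477, 9 (1.89%) were at least 1.5-fold higher and 7 lower, against 0.895% and 0.272% of all measured genes. Among all genes whose brighter signal was 27 to 100, the shares were 2.08% and 0.76%. The lncRNA genes were not matched to others by signal. LINC01088 had signals of 56.0 and 115 (1.03) and MILIP 77.4 and 44.5 (-0.80).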
